A study of Homo sapiens with 3 samples.

Results

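Ribosome footprints (RFP) of A549 cells, a human non-small cell lung cancer line, were compared gene by gene with those of HBE cells, a human bronchial epithelial line. Both lines were grown in complete DMEM under normal conditions without a treatment, and each gave 1 library of RNA fragments protected by ribosomes. The compared members were the genes with a protein-coding RefSeq transcript and at least 20 reads over both libraries, which were 18700 of 19268 genes. The reads of every transcript of a gene were added up and divided by the reads of the library on coding transcripts, which were 31304697 in A549 cells and 34505579 in HBE cells. A ratio is the A549 share over the HBE share, and the values in parentheses after it are its exact 95% interval, which covers counting error only. A gene was called higher or lower in A549 cells when this whole interval lay beyond 2-fold, and otherwise not apart. With 1 library per line there was no replicate check and no test, so every ratio compares 2 libraries and not the lines in general, and a line's own state and the handling of its library cannot be told apart. Fewer transcripts and fewer ribosomes per transcript cannot be told apart either, since mRNA libraries were not analysed here.

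Ribosome profiling sequences the stretches of mRNA that translating ribosomes shield from nuclease, so a gene's reads follow both how much mRNA there is and how densely it is translated. Basal cells are the stem-like cells of the bronchial epithelium; they are anchored by hemidesmosomes and desmosomes and carry the keratins KRT5, KRT14 and KRT17. In lung cancers the transcription factor NRF2, the product of NFE2L2, is often freed from its repressor KEAP1, and it then drives enzymes that reduce carbonyls and quinones, make glutathione and supply NADPH. A549 is a line long known for such a state of KEAP1.

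Of the 18700 genes, 1150 were higher in A549 cells, which is 6.15%, and 629 were lower, which is 3.36%. The median gene had a log2 ratio of 0.35, that is 1.28-fold, so most genes lay slightly above 0 when the sum of coding reads set the zero point. The factors of the trimmed mean of M-values (TMM), 1.12 for A549 and 0.892 for HBE cells, moved this median to 0.022. Under TMM 645 genes were higher and 1041 lower, so the share of higher genes among those apart was 38.3% in place of 64.6%. TMM lowers every ratio by the same factor, so all 629 lower genes had to remain lower, while of the 1150 higher genes 645 remained higher. Dividing by all mapped reads moves every ratio the other way. Then all 1150 higher genes remained higher and 592 of the 629 lower genes remained lower. With the median gene set to 0, 621 genes were higher and 1090 lower. For this reason each gene list below is given under both the sum of coding reads and TMM. A list has to be read against the median of all genes on the same scale, and against genes with a similar number of reads. Its counts by the sum of coding reads stand beside 6.15% higher and 3.36% lower over all genes.

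**Figure D1:**
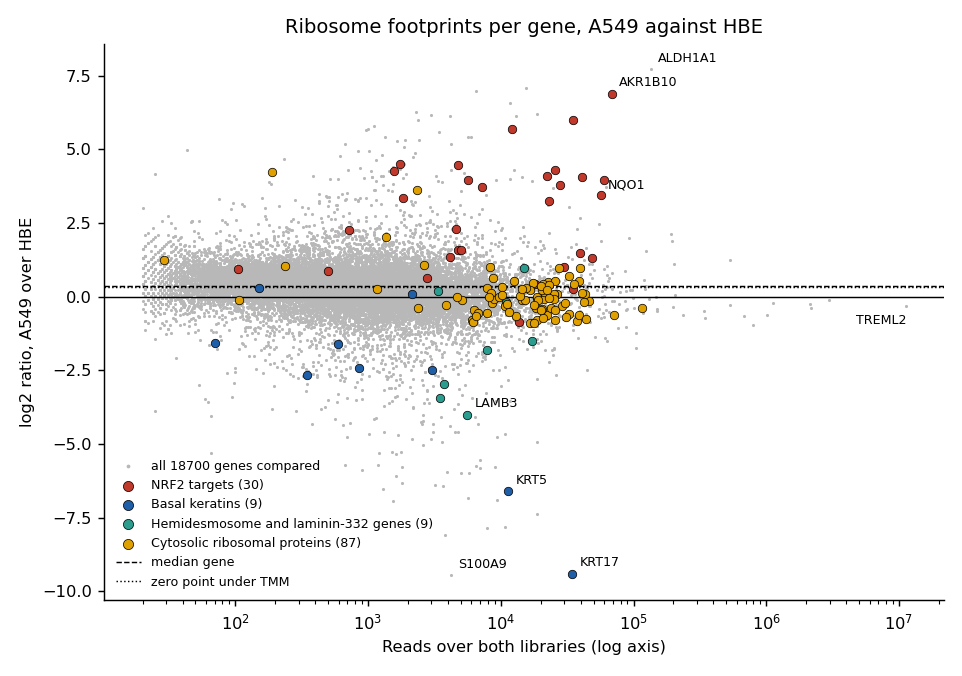
Log2 ratio of A549 over HBE for each of the 18700 genes (vertical axis) against the reads of both libraries (horizontal axis, logarithmic), with 4 gene lists in colour. The NRF2 targets lie far above the median gene at 0.35 (dashed), the basal keratins and hemidesmosome genes mostly below 0, and the ribosomal proteins mostly around the zero line; the dotted line is the zero point under TMM.

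The ratios spanned a wide range but most genes sat near the centre. The lowest 1% of genes lay below a log2 ratio of -2.41 and the highest 1% above 2.55, while genes from the 25th to the 75th percentile lay between -0.06 and 0.70. Between -0.5 and 0.5 there were 9405 genes, which held 62.0% of the coding reads in A549 cells and 67.1% in HBE cells. At the ends, 63 genes had a log2 ratio above 4 and 62 genes one below -4. The 63 genes above 4 held 1.64% of the coding reads in A549 cells against 0.0385% in HBE cells, and the 62 below -4 held 0.0184% in A549 cells against 0.812% in HBE cells.

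The centre itself moved with the number of reads. Genes with 20 to 49 reads had a median log2 ratio of 0.55, those with 500 to 999 reads 0.34, and those with 10000 reads or more 0.05. The share called higher was 1.29% at 20 to 49 reads and 11.5% at 10000 reads or more. The share called lower was 0.117% and 7.65% in these 2 classes. Across the genes Spearman's rho between the log2 ratio and the reads was -0.22, and between the log2 ratio and transcript length -0.018, as a description over genes that share both libraries. The genes with most reads took a smaller share in A549 cells, where the 10 leading genes held 31.7% of the coding reads against 38.9% in HBE cells. TREML2, an immunoglobulin-like receptor gene of blood cells, led both libraries with 15.3% of the coding reads in A549 cells and 18.96% in HBE cells. Where the reads of such leading genes lay along their transcripts was not tested, so their counts are not read as levels of translation. Without the 10 genes with most reads over both libraries in the denominators, the median log2 ratio was 0.20, with 870 genes higher and 771 lower.

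**Figure D2:**
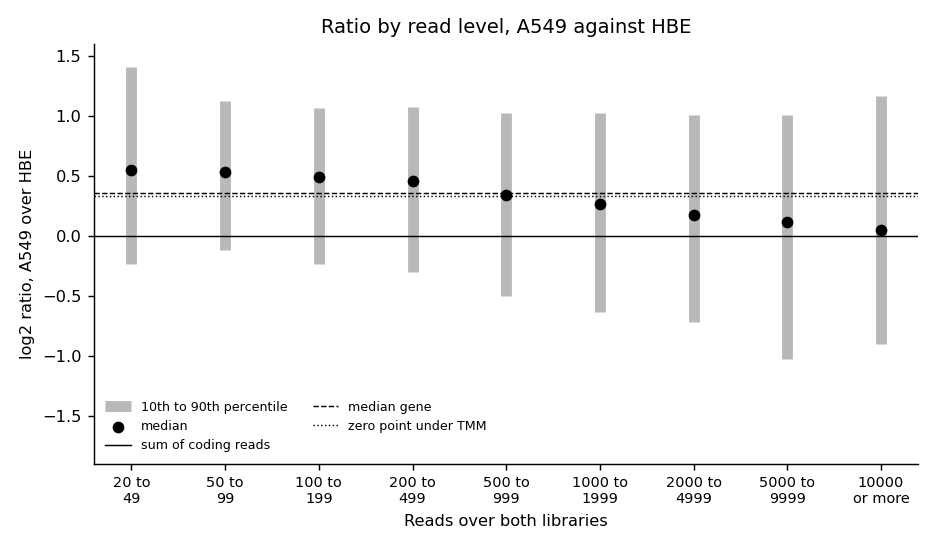
Median log2 ratio (points) and 10th to 90th percentile (bars) of the genes in 9 classes of reads over both libraries (horizontal axis), with the zero points of the sum of coding reads (solid), the median gene (dashed) and TMM (dotted). The median falls from 0.55 in the class of fewest reads to 0.05 in the class of most reads.

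The labels were set against markers of airway and lung cells. Both libraries held the keratins of simple epithelia KRT8 and KRT18 among their well-read genes, and only the HBE library had the basal markers KRT5 and KRT17 at a high level. KRT14, a basal keratin, had 16 reads in A549 cells and 54 in HBE cells, a ratio of 0.327 (0.174 to 0.579), which was not apart by the sum of coding reads and lower under TMM. TP63, the transcription factor that maintains basal cells, had 286 reads in A549 cells against 2265 in HBE cells, 7.18 times lower (6.35 to 8.15). The surfactant genes SFTPC and SFTPB held few reads in both libraries. SFTPC, a surfactant protein of alveolar type 2 cells, had 40 reads in A549 cells and 29 in HBE cells, a ratio of 1.52 (0.919 to 2.54), which was not apart. SFTPB, a surfactant protein of alveolar and club cells, had 104 reads in A549 cells and 72 in HBE cells, a ratio of 1.59 (1.17 to 2.18), which was not apart. NKX2-1, a lung lineage transcription factor, had 242 reads in A549 cells and 127 in HBE cells, a ratio of 2.1 (1.69 to 2.62), which was not apart. For scale, the 329 olfactory receptor genes compared, whose receptors serve smell, had a median of 31 reads in A549 cells and 23 in HBE cells, which is a level like that of the alveolar marker SFTPC. PTPRC, the leukocyte marker CD45, had 564 reads in A549 cells and 342 in HBE cells, a ratio of 1.82 (1.59 to 2.09), which was not apart. CD3E, a T cell receptor subunit, had 41 reads in A549 cells and 37 in HBE cells, a ratio of 1.22 (0.764 to 1.96), which was not apart.

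The largest differences upward were led by ALDH1A1, an enzyme that oxidises retinal and other aldehydes and whose gene spans 75515587 to 75695358 of chromosome 9 in hg19, minus strand. Among genes with at least 200 reads, 235 were higher with the whole interval beyond 4-fold and 204 were lower by this measure, out of 14751. ALDH1A1 had 134294 reads in A549 cells and 700 in HBE cells, a ratio of 211 (196 to 228). VIM, the intermediate filament protein vimentin of mesenchymal cells, had 15327 reads in A549 cells and 124 in HBE cells, a ratio of 136 (114 to 164). SPP1, osteopontin, a secreted glycoprotein of matrix and mineral, had 6418 reads in A549 cells and 56 in HBE cells, a ratio of 126 (97.2 to 167). VIM and SPP1 held few reads in the HBE library, while ALDH1A1 lay above the HBE median of 345 reads per gene. UCHL1, a deubiquitinating enzyme of neurons and neuroendocrine cells, had 11656 reads in A549 cells and 134 in HBE cells, a ratio of 95.9 (80.9 to 115). SLC22A3, a transporter of organic cations, had 2263 reads in A549 cells and 32 in HBE cells, a ratio of 77.9 (55.1 to 114). CYP24A1, the hydroxylase that inactivates vitamin D, had 18586 reads in A549 cells and 276 in HBE cells, a ratio of 74.2 (65.9 to 83.9).

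Further genes at the top of the range came from several unrelated families. HAVCR1, the kidney injury molecule KIM-1, had 4093 reads in A549 cells and 63 in HBE cells, a ratio of 71.6 (55.9 to 93.4). CRIP1, a small zinc-binding LIM domain protein, had 2340 reads in A549 cells and 40 in HBE cells, a ratio of 64.5 (47.2 to 90.5). MMP7, the matrix metalloprotease matrilysin, had 1083 reads in A549 cells and 21 in HBE cells, a ratio of 56.8 (37 to 92.2). Each of them was nearly unread in the HBE library. CYBA, a membrane subunit of the NADPH oxidase, had 974 reads in A549 cells and 20 in HBE cells, a ratio of 53.7 (34.6 to 88.3). UCP2, an uncoupling protein of mitochondria, had 1298 reads in A549 cells and 33 in HBE cells, a ratio of 43.4 (30.7 to 63.3). CA12, a membrane carbonic anhydrase, had 5535 reads in A549 cells and 143 in HBE cells, a ratio of 42.7 (36.1 to 50.7). None of these last 3 genes belonged to a list of redox targets used here.

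The largest differences downward were genes of squamous and basal epithelium and of innate defence. KRT17 spans 39775694 to 39781094 of chromosome 17, minus strand, and S100A9, a subunit of calprotectin, spans 153330330 to 153333499 of chromosome 1, plus strand. S100A9 had 5 reads in A549 cells against 4219 in HBE cells, 766 times lower (328 to 2359). KRT17 had 46 reads in A549 cells and 34593 in HBE cells, 682 times lower (511 to 932). SERPINB3, a squamous cell carcinoma antigen and protease inhibitor, had 12 reads in A549 cells against 3765 in HBE cells, lower by 285 times (163 to 551). The reads of these genes in A549 cells were few, so their counting intervals were wide. SERPINB4, the neighbouring second squamous cell carcinoma antigen, had 43 reads in A549 cells against 10720 in HBE cells, 226 times lower (168 to 313). S100A2, a calcium-binding protein of basal epithelium, had 101 reads in A549 cells and 18545 in HBE cells, 167 times lower (137 to 205). SERPINB5, the protease inhibitor maspin, had 81 reads in A549 cells against 5717 in HBE cells, lower by 64 times (51.4 to 80.8). SERPINB3 and SERPINB4 share 44.2% of their coding stretches of 28 bases with another gene, chiefly with each other, so their reads cannot be fully assigned. OLR1, a receptor for oxidised lipoprotein, had 70 reads in A549 cells against 9337 in HBE cells, 121 times lower (95.7 to 155). TSPAN1, an epithelial tetraspanin, had 44 reads in A549 cells and 5590 in HBE cells, 115 times lower (85.7 to 159).

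Further genes at the low end had other functions. MT1E, a metallothionein that binds zinc and copper, had 11 reads in A549 cells against 1538 in HBE cells, lower by 127 times (70.7 to 254.6). RAB25, a small GTPase of epithelial vesicle recycling, had 12 reads in A549 cells against 1281 in HBE cells, 96.8 times lower (55.2 to 188). CSTA, cystatin A, a component of the cornified envelope, had 20 reads in A549 cells and 1794 in HBE cells, 81.4 times lower (52.5 to 134). These were read in HBE cells and nearly unread in A549 cells. HCAR2, a receptor for hydroxy-carboxylic acids, had 13 reads in A549 cells against 886 in HBE cells, lower by 61.8 times (36 to 117). HCAR2 shares 56.3% of its coding stretches of 28 bases with HCAR3. FXYD3, a regulator of the sodium pump, had 109 reads in A549 cells against 6805 in HBE cells, 56.6 times lower (46.9 to 69.1).

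**Figure D3:**
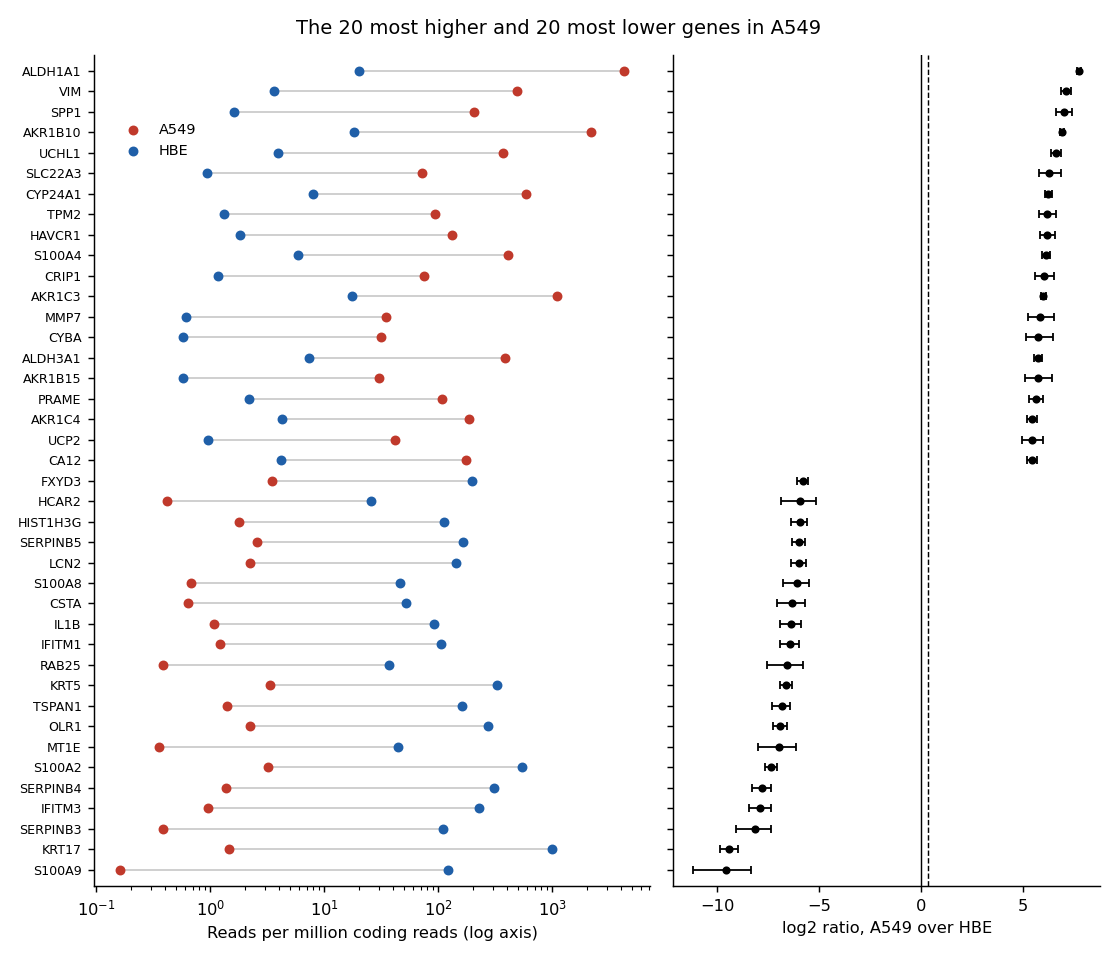
Reads scaled to the coding reads of each library (RPM; left, logarithmic axis) in A549 cells (red) and HBE cells (blue) for the 20 most higher and 20 most lower genes with at least 200 reads and an interval beyond 4-fold, and the log2 ratio with its exact 95% counting interval (right; dashed line, median gene). The ratios run from 211 for ALDH1A1 down to 766 times lower for S100A9.

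The NRF2 targets formed the list with the highest median. Of the 30 members compared, 23 were higher and 0 lower in A549 cells, or 21 and 1 under TMM, and their median log2 ratio was 3.31, or 2.97 under TMM. As a group they took 1.61% of the coding reads in A549 cells and 0.286% in HBE cells. The aldo-keto reductases, which reduce aldehydes and ketones, overlap with that list. Of their 13 symbols 12 were found. Of the 12 aldo-keto reductases compared, 8 were higher and 0 lower in A549 cells, or 7 and 0 under TMM, and their median log2 ratio was 2.85, or 2.52 under TMM. AKR1B10, a reductase of retinal and lipid aldehydes, had 68393 reads in A549 cells and 633 in HBE cells, a ratio of 119 (110.1 to 129). AKR1C3, a reductase of steroids and prostaglandins, had 34367 reads in A549 cells and 598 in HBE cells, a ratio of 63.3 (58.4 to 68.8). AKR1C2, a hydroxysteroid dehydrogenase, had 20917 reads in A549 cells and 1340 in HBE cells, a ratio of 17.2 (16.3 to 18.2). These reductases of steroids and lipid aldehydes were well read in A549 cells. AKR1C4, the liver-type member of this cluster, had 5783 reads in A549 cells and 147 in HBE cells, a ratio of 43.4 (36.8 to 51.4). AKR1B1, aldose reductase, which turns glucose into sorbitol, had 11855 reads in A549 cells and 3943 in HBE cells, a ratio of 3.31 (3.2 to 3.44). AKR1A1, the general aldehyde reductase, had 844 reads in A549 cells and 1247 in HBE cells, a ratio of 0.746 (0.683 to 0.815), which was not apart. The order within the family therefore ran from AKR1B10 at the top to AKR1A1, the member with the lowest ratio.

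The AKR1C genes are so alike that reads of one can fall on another, which is why their coding starts are shown. They lie side by side on chromosome 10, AKR1C2 on the minus strand and the others on the plus strand, and each has 972 coding bases in the GENCODE annotation lifted to hg19. The first 120 coding bases are given from the start codon on, with capitals where a base differs from AKR1C1:
AKR1C1: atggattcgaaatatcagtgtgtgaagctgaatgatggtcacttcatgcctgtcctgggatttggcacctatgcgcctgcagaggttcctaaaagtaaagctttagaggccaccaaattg
AKR1C2: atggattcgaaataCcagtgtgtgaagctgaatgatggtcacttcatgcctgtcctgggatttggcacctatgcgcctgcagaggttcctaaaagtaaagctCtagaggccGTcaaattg
AKR1C3: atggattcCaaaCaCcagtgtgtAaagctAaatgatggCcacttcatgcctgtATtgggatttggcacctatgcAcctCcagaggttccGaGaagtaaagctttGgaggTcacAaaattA
AKR1C4: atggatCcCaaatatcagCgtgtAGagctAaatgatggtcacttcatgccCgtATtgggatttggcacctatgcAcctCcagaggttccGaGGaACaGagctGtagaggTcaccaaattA
In this stretch AKR1C2 differs from AKR1C1 at 4 bases, AKR1C3 at 16 and AKR1C4 at 20. Over the whole coding sequence AKR1C2 was 98.0% identical to AKR1C1, AKR1C3 91.5% and AKR1C4 88.5%. Of all stretches of 28 bases, about the length of a footprint, 73.3% of those in AKR1C1 and 73.0% of those in AKR1C2 occur in another coding sequence, against 35.3% in AKR1C3 and 24.3% in AKR1C4. The split of reads within the cluster is therefore uncertain, most of all between AKR1C1 and AKR1C2. AKR1C4 shares 21.3% of its stretches with AKR1C3, which had more reads, and how many of the AKR1C4 reads lay on shared stretches was not tested, so its ratio is uncertain as well. AKR1B10 shares 35.8% of its stretches with AKR1B15.

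The enzymes of the glutathione and thioredoxin systems did not move as one. Of the 32 genes compared, 10 were higher and 3 lower in A549 cells, or 9 and 4 under TMM, and their median log2 ratio was 0.36, or 0.03 under TMM. NQO1, the quinone reductase, had 51339 reads in A549 cells and 5222 in HBE cells, a ratio of 10.8 (10.5 to 11.2). TXNRD1, the selenoenzyme that reduces thioredoxin, had 20633 reads in A549 cells and 2377 in HBE cells, a ratio of 9.57 (9.17 to 9.99). GPX2, a glutathione peroxidase of epithelia, had 1647 reads in A549 cells and 80 in HBE cells, a ratio of 22.7 (18.1 to 28.8). All 3 were among the 10 higher members, with GSR, SLC7A11, GCLM, GCLC, GLRX, SRXN1 and PRDX1. PRDX1, a peroxiredoxin of the cytosol, had 33793 reads in A549 cells and 15089 in HBE cells, a ratio of 2.47 (2.42 to 2.52), which was not apart under TMM. PRDX2, a second cytosolic peroxiredoxin, had 420 reads in A549 cells against 4651 in HBE cells, lower by 10.05 times (9.09 to 11.1). The related peroxiredoxins thus lay on opposite sides of the range. The other lower members were SOD2, the superoxide dismutase of mitochondria, and GPX1. GPX1, the most widespread glutathione peroxidase, had 474 reads in A549 cells against 2554 in HBE cells, 4.89 times lower (4.43 to 5.4). TXN, thioredoxin, had 19186 reads in A549 cells and 10562 in HBE cells, a ratio of 2.0 (1.96 to 2.05), which was not apart.

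NADPH is supplied by the pentose phosphate pathway and by malic enzyme. Of the 15 genes of this supply compared, 6 were higher and 0 lower in A549 cells, or 4 and 3 under TMM, and their median log2 ratio was 0.61, or 0.28 under TMM. PGD, an enzyme of the oxidative branch, had 38506 reads in A549 cells and 2522 in HBE cells, a ratio of 16.8 (16.2 to 17.5). TKT, transketolase, of the non-oxidative branch, had 28238 reads in A549 cells and 11109 in HBE cells, a ratio of 2.8 (2.74 to 2.86). PGD thus had a larger ratio than TKT. RPE, an epimerase of pentose phosphates, had 11806 reads in A549 cells and 5982 in HBE cells, a ratio of 2.18 (2.11 to 2.24), which was not apart under TMM. TALDO1, transaldolase, had 9864 reads in A549 cells and 8144 in HBE cells, a ratio of 1.34 (1.3 to 1.37), which was not apart. IDH1, the cytosolic isocitrate dehydrogenase, another source of NADPH, had 4571 reads in A549 cells and 9159 in HBE cells, a ratio of 0.55 (0.531 to 0.57), which was not apart by the sum of coding reads and lower under TMM. ME1, the cytosolic malic enzyme, picked after its values were seen, had 2919 reads in A549 cells and 1257 in HBE cells, a ratio of 2.56 (2.395 to 2.74), which was not apart under TMM.

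NRF2 and its regulators did not share the ratios of its targets. Of the 10 genes compared, 1 was higher and 0 lower in A549 cells, or 1 and 0 under TMM, and their median log2 ratio was 0.32, or -0.01 under TMM, so that its sign changed with the zero point. NFE2L2, the gene of NRF2, had 2418 reads in A549 cells and 3990 in HBE cells, a ratio of 0.668 (0.635 to 0.703), which was not apart. KEAP1, the adaptor that marks NRF2 for degradation, had 1233 reads in A549 cells and 998 in HBE cells, a ratio of 1.36 (1.25 to 1.48), which was not apart. CUL3, the ligase scaffold that KEAP1 recruits, had 4469 reads in A549 cells and 3579 in HBE cells, a ratio of 1.38 (1.32 to 1.44), which was not apart. Neither NRF2 nor its repressor was apart, while 23 of the 30 targets were higher. SQSTM1, the autophagy receptor p62, which binds KEAP1, had 10920 reads in A549 cells and 3016 in HBE cells, a ratio of 3.99 (3.83 to 4.16). MAFK, a small MAF partner of NRF2, had 1777 reads in A549 cells and 2529 in HBE cells, a ratio of 0.774 (0.728 to 0.823), which was not apart.

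Promoters are given for 4 targets that were higher by the sum of coding reads, of which ME1 was not apart under TMM. They are shown because NRF2 binds the antioxidant response element, searched here as TGACNNNGC on both strands. The sequences are from RefSeq on GRCh38.p14, 250 bases before to 50 after the gene start, with matches in capitals. GCLM, the modifier subunit of glutathione synthesis, is on chromosome 1, GPX2 on chromosome 14, TXNRD1 on chromosome 12 and ME1 on chromosome 6:
GCLM: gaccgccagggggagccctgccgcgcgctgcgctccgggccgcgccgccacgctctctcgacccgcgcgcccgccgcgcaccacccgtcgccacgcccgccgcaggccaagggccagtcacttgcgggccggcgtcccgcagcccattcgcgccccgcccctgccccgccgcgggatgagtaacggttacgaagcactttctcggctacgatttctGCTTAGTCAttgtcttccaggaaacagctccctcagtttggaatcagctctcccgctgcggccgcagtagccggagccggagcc
GPX2: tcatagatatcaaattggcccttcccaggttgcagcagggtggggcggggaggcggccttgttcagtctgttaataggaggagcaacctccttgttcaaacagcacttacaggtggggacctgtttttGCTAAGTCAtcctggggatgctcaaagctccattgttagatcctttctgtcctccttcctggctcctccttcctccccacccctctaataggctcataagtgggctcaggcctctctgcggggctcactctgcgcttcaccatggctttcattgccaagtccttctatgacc
TXNRD1: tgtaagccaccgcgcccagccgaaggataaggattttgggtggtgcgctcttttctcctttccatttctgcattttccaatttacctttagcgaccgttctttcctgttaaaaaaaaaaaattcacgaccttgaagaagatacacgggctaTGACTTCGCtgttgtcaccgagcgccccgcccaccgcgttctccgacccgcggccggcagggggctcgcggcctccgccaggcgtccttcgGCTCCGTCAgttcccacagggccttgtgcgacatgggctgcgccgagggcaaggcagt
ME1: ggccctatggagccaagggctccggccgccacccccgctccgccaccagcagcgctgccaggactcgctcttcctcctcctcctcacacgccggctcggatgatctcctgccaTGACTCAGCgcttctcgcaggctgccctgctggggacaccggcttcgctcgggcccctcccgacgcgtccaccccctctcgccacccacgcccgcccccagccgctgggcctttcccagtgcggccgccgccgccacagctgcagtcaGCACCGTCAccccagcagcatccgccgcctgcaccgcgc
GCLM and GPX2 had 1 match each and TXNRD1 and ME1 had 2 each, and 1 of the matches in ME1, TGACTCAGC, also holds the AP-1 motif TGACTCA. Of all 27305 promoters given by RefSeq, 13.6% held a match. Of the 30 targets 21 had a promoter there and 6 of these a match, but as this covers under 80% of the list the check is void for the list as a whole. A match is a run of letters and does not show that the factor binds.

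Other families of detoxification moved in part. Of the 19 aldehyde dehydrogenases compared, 5 were higher and 2 lower in A549 cells, or 5 and 2 under TMM, and their median log2 ratio was 0.40, or 0.07 under TMM. ALDH3A1, an aldehyde dehydrogenase of cornea and airway, had 12001 reads in A549 cells and 252 in HBE cells, a ratio of 52.5 (46.3 to 59.7). ALDH1A3, a retinal dehydrogenase of epithelia, had 357 reads in A549 cells and 2306 in HBE cells, 5.86 times lower (5.24 to 6.57). ALDH7A1, a lysine-degrading member, had 2206 reads in A549 cells against 6318 in HBE cells, lower by 2.6 times (2.47 to 2.73). Retinal dehydrogenases were thus found at both ends, with ALDH1A1 up and ALDH1A3 down. Of the 22 efflux transporters of the ABCB, ABCC and ABCG groups compared, 7 were higher and 0 lower in A549 cells, or 6 and 1 under TMM, and their median log2 ratio was 0.62, or 0.29 under TMM. ABCC3, an exporter of glucuronides, had 4565 reads in A549 cells and 225 in HBE cells, a ratio of 22.4 (19.6 to 25.7). ABCC2, an exporter of conjugates to bile, had 5260 reads in A549 cells and 368 in HBE cells, a ratio of 15.8 (14.2 to 17.6). ABCC1, the multidrug resistance protein MRP1, had 7773 reads in A549 cells and 2471 in HBE cells, a ratio of 3.47 (3.31 to 3.63). The 7 higher transporters also included ABCC4, ABCG2, ABCB6 and ABCG4. ABCG1, an exporter of cholesterol, had 277 reads in A549 cells and 627 in HBE cells, a ratio of 0.487 (0.421 to 0.562), which was not apart by the sum of coding reads and lower under TMM.

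Conjugating enzymes showed no common shift. Of the 37 glutathione, glucuronide and sulfate transferases compared, 4 were higher and 3 lower in A549 cells, or 3 and 4 under TMM, and their median log2 ratio was 0.43, or 0.10 under TMM. GSTA4, a glutathione transferase of lipid aldehydes, had 173 reads in A549 cells and 13 in HBE cells, a ratio of 14.7 (8.35 to 28.1). GSTP1, the main glutathione transferase of lung, had 4557 reads in A549 cells and 6528 in HBE cells, a ratio of 0.769 (0.741 to 0.799), which was not apart. GSTT1, a theta class transferase, had 16 reads in A549 cells against 270 in HBE cells, 15.3 times lower (9.26 to 27.2). Most members were not apart, and both ends were small in number. Cytochromes P450 oxidise drugs and sterols. Of the 52 cytochrome genes compared, 6 were higher and 1 lower in A549 cells, or 4 and 1 under TMM, and their median log2 ratio was 0.51, or 0.18 under TMM. CYP4F11, a fatty acid hydroxylase, had 1509 reads in A549 cells and 393 in HBE cells, a ratio of 4.23 (3.79 to 4.74). CYP2J2, an epoxygenase of arachidonic acid, had 34 reads in A549 cells against 145 in HBE cells, lower by 3.87 times (2.65 to 5.8).

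Iron and selenium handling added a few large values. Of the 23 iron and heme genes compared, 4 were higher and 0 lower in A549 cells, or 4 and 0 under TMM, and their median log2 ratio was 0.46, or 0.13 under TMM. FTL, the ferritin light chain, had 26029 reads in A549 cells and 2085 in HBE cells, a ratio of 13.8 (13.2 to 14.4). FTH1, the ferritin heavy chain, had 18193 reads in A549 cells and 16672 in HBE cells, a ratio of 1.2 (1.18 to 1.23), which was not apart. HMOX1, heme oxygenase, which opens heme, had 1478 reads in A549 cells and 84 in HBE cells, a ratio of 19.4 (15.6 to 24.5). The ferritin chains thus differed from each other, the light chain being higher and the heavy chain not apart. BLVRB, a biliverdin reductase, had 5068 reads in A549 cells and 1294 in HBE cells, a ratio of 4.32 (4.06 to 4.59). TFRC, the transferrin receptor, had 6613 reads in A549 cells and 8615 in HBE cells, a ratio of 0.846 (0.819 to 0.874), which was not apart. Of the 23 selenoproteins compared, 3 were higher and 1 lower in A549 cells, or 3 and 1 under TMM, and their median log2 ratio was 0.09, or -0.24 under TMM, so that its sign changed with the zero point. The higher ones were TXNRD1, GPX2 and SELM, and the lower one was GPX1. GPX4, the peroxidase of membrane lipids, had 1579 reads in A549 cells and 2225 in HBE cells, a ratio of 0.782 (0.733 to 0.835), which was not apart.

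The keratins split by class. Of the 9 basal and stress keratins compared, 0 were higher and 6 lower in A549 cells, or 0 and 7 under TMM, and their median log2 ratio was -2.41, or -2.74 under TMM. KRT5, the basal partner of KRT14, had 104 reads in A549 cells against 11262 in HBE cells, 98.2 times lower (81 to 120.3). KRT6B, a keratin of activated epithelium, had 416 reads in A549 cells and 2594 in HBE cells, 5.66 times lower (5.1 to 6.29). KRT16, a keratin of activated epithelium, had 124 reads in A549 cells against 728 in HBE cells, lower by 5.33 times (4.4 to 6.5). The members not apart were KRT6C, KRT13 and KRT14. Of the coding stretches of 28 bases, 72.2% in KRT6A, 79.9% in KRT6B and 82.9% in KRT6C occur in other genes. Most of these stretches are shared among KRT6A, KRT6B and KRT6C, so their reads cannot be fully assigned. Of the 8 keratins in a list of simple epithelia and KRT81 compared, 4 were higher and 1 lower in A549 cells, or 2 and 2 under TMM, and their median log2 ratio was 0.81, or 0.48 under TMM. KRT8, the type II keratin of simple epithelium, had 153244 reads in A549 cells and 38389 in HBE cells, a ratio of 4.4 (4.35 to 4.45). KRT18, the partner of KRT8, had 150649 reads in A549 cells and 44285 in HBE cells, a ratio of 3.75 (3.71 to 3.79). KRT7, a keratin of ducts and airways, had 40838 reads in A549 cells and 21801 in HBE cells, a ratio of 2.06 (2.03 to 2.1), which was not apart under TMM. These were high in both libraries. KRT19, a keratin of simple and ductal epithelium, had 2865 reads in A549 cells against 7730 in HBE cells, 2.45 times lower (2.34 to 2.56). KRT19 was thus the only member of this list lower in A549 cells by the sum of coding reads. Under TMM KRT80, with 808 reads in A549 cells and 1727 in HBE cells, was lower as well. The other higher member is not a keratin of simple epithelia. KRT81, a hair keratin that cancer cells can express, had 27016 reads in A549 cells and 14312 in HBE cells, a ratio of 2.08 (2.04 to 2.12), which was not apart under TMM. Of the coding stretches of KRT81, 65.2% occur in other genes, chiefly in KRT86.

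Genes that fasten epithelial cells were lower in part. Of the 9 hemidesmosome and laminin-332 genes compared, 0 were higher and 5 lower in A549 cells, or 0 and 5 under TMM, and their median log2 ratio was -1.49, or -1.82 under TMM. ITGB4, the integrin of hemidesmosomes, had 1638 reads in A549 cells against 6303 in HBE cells, lower by 3.49 times (3.31 to 3.69). LAMB3, a chain of laminin-332, had 299 reads in A549 cells against 5288 in HBE cells, 16 times lower (14.3 to 18.1). PLEC, plectin, which links keratins to hemidesmosomes, had 9543 reads in A549 cells and 5350 in HBE cells, a ratio of 1.97 (1.9 to 2.03), which was not apart. The partner integrin ITGA6 was not apart either. COL17A1, the transmembrane collagen of hemidesmosomes, had 267 reads in A549 cells against 3198 in HBE cells, lower by 10.9 times (9.59 to 12.4). Of the 14 desmosome genes compared, 0 were higher and 5 lower in A549 cells, or 0 and 7 under TMM, and their median log2 ratio was -0.69, or -1.02 under TMM. DSP, desmoplakin, had 3840 reads in A549 cells against 13680 in HBE cells, 3.23 times lower (3.12 to 3.35). PKP3, a plakophilin, had 684 reads in A549 cells and 2906 in HBE cells, 3.85 times lower (3.55 to 4.2). PKP2, a plakophilin, had 381 reads in A549 cells against 2103 in HBE cells, lower by 5.01 times (4.49 to 5.6).

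Other desmosome genes lay nearer the centre, while the cadherins DSC2 and DSC3 were also lower. DSG2, a desmosomal cadherin, had 3313 reads in A549 cells and 6566 in HBE cells, a ratio of 0.556 (0.533 to 0.58), which was not apart by the sum of coding reads and lower under TMM. JUP, plakoglobin, had 3600 reads in A549 cells and 5758 in HBE cells, a ratio of 0.689 (0.661 to 0.719), which was not apart. Of the 30 adherens and tight junction genes compared, 4 were higher and 10 lower in A549 cells, or 2 and 11 under TMM, and their median log2 ratio was 0.20, or -0.13 under TMM, so that its sign changed with the zero point. CDH1, E-cadherin, had 884 reads in A549 cells against 4587 in HBE cells, lower by 4.71 times (4.38 to 5.06). EPCAM, an epithelial adhesion molecule, had 541 reads in A549 cells against 18183 in HBE cells, 30.5 times lower (28 to 33.3). CLDN7, a claudin, had 102 reads in A549 cells and 3476 in HBE cells, 30.9 times lower (25.4 to 38). These markers of epithelium were lower although both lines are epithelial. CTNNB1, beta-catenin, had 15229 reads in A549 cells against 47964 in HBE cells, lower by 2.86 times (2.81 to 2.91). CTNND1, p120 catenin, had 4445 reads in A549 cells against 17028 in HBE cells, 3.48 times lower (3.36 to 3.59). CLDN2, a pore-forming claudin, had 355 reads in A549 cells and 96 in HBE cells, a ratio of 4.08 (3.24 to 5.16). CLDN2 was thus a claudin on the opposite side to CLDN7 and CLDN4.

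The mesenchymal list was carried by a few genes. Of the 24 mesenchymal genes and regulators of the epithelial state compared, 5 were higher and 3 lower in A549 cells, or 3 and 4 under TMM, and their median log2 ratio was 0.57, or 0.24 under TMM. S100A4, a calcium-binding protein of fibroblasts, had 12774 reads in A549 cells and 202 in HBE cells, a ratio of 69.7 (60.7 to 80.5). FN1, fibronectin, had 13611 reads in A549 cells and 905 in HBE cells, a ratio of 16.6 (15.5 to 17.8). TWIST2, a bHLH repressor, had 4447 reads in A549 cells and 5798 in HBE cells, a ratio of 0.845 (0.813 to 0.879), which was not apart. The higher members were VIM, FN1, S100A4, MMP2 and TWIST1, and the lower ones ESRP1, GRHL2 and ESRP2, all known in epithelium. ESRP1, an epithelial splicing regulator, had 162 reads in A549 cells against 4333 in HBE cells, lower by 24.3 times (20.7 to 28.6). GRHL2, a transcription factor of epithelial identity, had 386 reads in A549 cells against 1527 in HBE cells, 3.59 times lower (3.21 to 4.02). Of the 18 other integrins compared, 2 were higher and 3 lower in A549 cells, or 1 and 3 under TMM, and their median log2 ratio was 0.74, or 0.41 under TMM. ITGB5, a vitronectin receptor chain, had 5076 reads in A549 cells and 848 in HBE cells, a ratio of 6.6 (6.13 to 7.1). ITGA2, a collagen receptor chain, had 874 reads in A549 cells against 4135 in HBE cells, lower by 4.29 times (3.99 to 4.62). Of the 44 collagens compared, 3 were higher and 2 lower in A549 cells, or 2 and 3 under TMM, and their median log2 ratio was 0.20, or -0.14 under TMM, so that its sign changed with the zero point. COL5A2, a fibrillar collagen, had 3064 reads in A549 cells and 196 in HBE cells, a ratio of 17.2 (14.9 to 20.01).

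Actin and its partners held many higher members. Of the 39 genes compared, 14 were higher and 1 lower in A549 cells, or 12 and 3 under TMM, and their median log2 ratio was 0.75, or 0.42 under TMM. ACTG1, cytoplasmic gamma-actin, had 91124 reads in A549 cells and 34043 in HBE cells, a ratio of 2.95 (2.91 to 2.99). ACTB, cytoplasmic beta-actin, had 60188 reads in A549 cells and 70424 in HBE cells, a ratio of 0.942 (0.932 to 0.952), which was not apart. TMSB4X, thymosin beta-4, which holds actin monomers, had 45961 reads in A549 cells and 9213 in HBE cells, a ratio of 5.5 (5.38 to 5.62). The actin isoforms thus differed, with ACTG1 higher and ACTB not apart. TPM2, a tropomyosin, had 2943 reads in A549 cells and 45 in HBE cells, a ratio of 72.1 (53.7 to 99.1). FLNA, filamin, which crosslinks actin, had 27909 reads in A549 cells and 8916 in HBE cells, a ratio of 3.45 (3.37 to 3.53). ANXA2, an annexin of the cell cortex, had 73096 reads in A549 cells and 20143 in HBE cells, a ratio of 4.0 (3.94 to 4.06). FSCN1, the bundling protein fascin, had 2071 reads in A549 cells and 6553 in HBE cells, 2.87 times lower (2.73 to 3.02). Fascin was the only lower member. Of the 17 tubulins compared, 4 were higher and 0 lower in A549 cells, or 3 and 0 under TMM, and their median log2 ratio was 0.39, or 0.06 under TMM. TUBB3, the neuronal beta-tubulin, had 2053 reads in A549 cells and 422 in HBE cells, a ratio of 5.36 (4.83 to 5.97). TUBB, the common beta-tubulin, had 31789 reads in A549 cells and 26672 in HBE cells, a ratio of 1.31 (1.29 to 1.34), which was not apart. TUBA1A, TUBA1B and TUBA1C share most of their coding stretches and were not apart. LAMA4, a laminin chain of vessels and muscle, had 57602 reads in A549 cells and 4813 in HBE cells, a ratio of 13.2 (12.8 to 13.6).

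Growth signals and matrix turnover gave mixed lists. Of the 25 YAP and TGF-beta response genes compared, 5 were higher and 3 lower in A549 cells, or 4 and 5 under TMM, and their median log2 ratio was 0.30, or -0.03 under TMM, so that its sign changed with the zero point. ANKRD1, a YAP target of muscle and epithelium, had 481 reads in A549 cells and 33 in HBE cells, a ratio of 16.1 (11.3 to 23.6). F3, tissue factor, had 292 reads in A549 cells against 6448 in HBE cells, lower by 20.03 times (17.8 to 22.6). THBS1, thrombospondin, had 2771 reads in A549 cells and 6375 in HBE cells, a ratio of 0.479 (0.458 to 0.501), which was not apart by the sum of coding reads and lower under TMM. Members thus lay at both ends. Of the 29 matrix proteases and inhibitors compared, 5 were higher and 3 lower in A549 cells, or 4 and 4 under TMM, and their median log2 ratio was 0.14, or -0.19 under TMM, so that its sign changed with the zero point. ADAM9, a membrane metalloprotease, had 8143 reads in A549 cells and 1885 in HBE cells, a ratio of 4.76 (4.53 to 5.01). ST14, matriptase, a membrane protease of epithelium, had 171 reads in A549 cells against 3990 in HBE cells, lower by 21.2 times (18.2 to 24.8). Of the 23 growth factor receptors and EGFR ligands compared, 5 were higher and 1 lower in A549 cells, or 4 and 2 under TMM, and their median log2 ratio was 0.04, or -0.29 under TMM, so that its sign changed with the zero point. EGFR, the receptor of epidermal growth factor, had 2050 reads in A549 cells and 3098 in HBE cells, a ratio of 0.729 (0.689 to 0.771), which was not apart. FGFR1, a fibroblast growth factor receptor, had 1887 reads in A549 cells and 567 in HBE cells, a ratio of 3.67 (3.34 to 4.04). FGFR4, a second fibroblast growth factor receptor, had 456 reads in A549 cells and 53 in HBE cells, a ratio of 9.48 (7.12 to 12.9). The receptors EGFR, ERBB2 and MET were all not apart. HBEGF, an EGFR ligand, had 45 reads in A549 cells against 202 in HBE cells, 4.07 times lower (2.94 to 5.76). Of the 20 ERK feedback genes compared, 2 were higher and 2 lower in A549 cells, or 2 and 3 under TMM, and their median log2 ratio was 0.71, or 0.38 under TMM. ETV4, an ETS factor downstream of ERK, had 603 reads in A549 cells and 140 in HBE cells, a ratio of 4.75 (3.94 to 5.75). EGR1, an immediate early factor, had 97 reads in A549 cells against 298 in HBE cells, lower by 2.79 times (2.21 to 3.54).

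Lineage factors differed gene by gene. Of the 29 airway lineage transcription factors compared, 4 were higher and 6 lower in A549 cells, or 3 and 7 under TMM, and their median log2 ratio was 0.14, or -0.19 under TMM, so that its sign changed with the zero point. ID2, an inhibitor of bHLH factors, had 1233 reads in A549 cells and 48 in HBE cells, a ratio of 28.3 (21.2 to 38.6). ID1, a second inhibitor of that family, had 4667 reads in A549 cells and 14011 in HBE cells, 2.72 times lower (2.63 to 2.82). KLF5, a factor of epithelial proliferation, had 1300 reads in A549 cells against 4051 in HBE cells, lower by 2.83 times (2.66 to 3.01). Among the higher factors were HNF4A, ID2 and FOXA2, known in gut, liver and lung, and the lower ones ID1, CEBPB, KLF5, TP63, EHF and IRX2. ELF3, an epithelial ETS factor, had 5345 reads in A549 cells and 6307 in HBE cells, a ratio of 0.934 (0.901 to 0.969), which was not apart. Of the 24 surfactant, club cell and mucin genes compared, 3 were higher and 5 lower in A549 cells, or 2 and 6 under TMM, and their median log2 ratio was 0.35, or 0.02 under TMM. AGR2, a disulfide isomerase of mucus cells, had 3157 reads in A549 cells and 230 in HBE cells, a ratio of 15.1 (13.2 to 17.4). ABCA3, the lipid pump of lamellar bodies, had 1061 reads in A549 cells and 476 in HBE cells, a ratio of 2.46 (2.2 to 2.74), which was not apart under TMM. BPIFA1, a secreted airway defence protein, had 35 reads in A549 cells against 982 in HBE cells, 25.5 times lower (18.2 to 36.8). SFTPD, surfactant protein D, had 1659 reads in A549 cells and 5213 in HBE cells, 2.85 times lower (2.7 to 3.01).

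Of the genes in a list of liver-type proteins, a few were higher in A549 cells and most were not apart. Together the genes of this list took 0.0483% of the coding reads in A549 cells and 0.0531% in HBE cells. Of the 34 liver-type genes compared, 6 were higher and 3 lower in A549 cells, or 5 and 3 under TMM, and their median log2 ratio was 0.64, or 0.31 under TMM. FGA, the alpha chain of fibrinogen, had 2109 reads in A549 cells and 86 in HBE cells, a ratio of 27 (21.8 to 33.9). FGB, the beta chain, had 2607 reads in A549 cells and 347 in HBE cells, a ratio of 8.28 (7.4 to 9.29). FGG, the gamma chain, had 1109 reads in A549 cells and 48 in HBE cells, a ratio of 25.5 (19.1 to 34.7). All 3 fibrinogen chains were thus higher. APOC1, an apolipoprotein, had 648 reads in A549 cells and 19 in HBE cells, a ratio of 37.6 (23.9 to 62.8). CPS1, the first enzyme of the urea cycle, had 2478 reads in A549 cells and 445 in HBE cells, a ratio of 6.14 (5.55 to 6.8). C3, the central complement protein, had 371 reads in A549 cells and 10329 in HBE cells, 25.3 times lower (22.8 to 28.1). The lower members were C3, CFB and HP. Of the 21 HOX genes compared, 1 was higher and 0 lower in A549 cells, or 0 and 0 under TMM, and their median log2 ratio was 0.50, or 0.17 under TMM. Of the 19 cancer-testis antigens compared, 2 were higher and 0 lower in A549 cells, or 2 and 0 under TMM, and their median log2 ratio was 0.73, or 0.40 under TMM. PRAME, an antigen of testis and tumours, had 3369 reads in A549 cells and 76 in HBE cells, a ratio of 48.9 (38.9 to 62.2). MAGEA6 was the other higher member. PEG10, a retrotransposon-derived imprinted gene, had 3640 reads in A549 cells and 424 in HBE cells, a ratio of 9.46 (8.55 to 10.5). PEG10 was the 1 higher gene of its list. Of the 22 imprinted genes compared, 1 was higher and 0 lower in A549 cells, or 1 and 0 under TMM, and their median log2 ratio was 0.43, or 0.10 under TMM.

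Interferon-stimulated genes were mostly not apart, and the IFITM genes were lower in A549 cells. Of the 40 interferon-stimulated genes compared, 5 were higher and 9 lower in A549 cells, or 0 and 11 under TMM, and their median log2 ratio was -0.10, or -0.43 under TMM. IFITM3, a membrane protein that blocks virus entry, had 30 reads in A549 cells and 7841 in HBE cells, 237 times lower (166 to 352). IFITM1, its neighbour, had 38 reads in A549 cells against 3644 in HBE cells, lower by 87 times (63.3 to 123.1). IFITM2, the third member of the cluster, had 833 reads in A549 cells against 10812 in HBE cells, 11.8 times lower (11 to 12.7). The IFITM genes share 24.5% to 42.9% of their coding stretches with each other. Nearly all reads of IFITM3 lay on its non-coding transcript, with 1 coding read in A549 cells and 10 in HBE cells, so that the gene drops out when coding transcripts alone are used. The 5 higher members, OAS1, HERC5, RSAD2 and IRF7 among them, were all not apart under TMM.

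Antigen presentation and cytokines held several lower genes. Of the 20 genes of HLA class I presentation compared, 0 were higher and 7 lower in A549 cells, or 0 and 12 under TMM, and their median log2 ratio was -0.95, or -1.28 under TMM. B2M, the light chain of class I molecules, had 2098 reads in A549 cells and 6748 in HBE cells, 2.92 times lower (2.78 to 3.07). HLA-C, a class I heavy chain, had 1839 reads in A549 cells and 4168 in HBE cells, a ratio of 0.486 (0.46 to 0.514), which was not apart by the sum of coding reads and lower under TMM. CD74, the invariant chain of class II molecules, had 40 reads in A549 cells against 1723 in HBE cells, 39.1 times lower (28.6 to 54.9). HLA genes are highly variable between people and near-identical to each other, so their reads may be lost or shared. Of the 35 chemokines and cytokines compared, 4 were higher and 10 lower in A549 cells, or 4 and 12 under TMM, and their median log2 ratio was -0.22, or -0.56 under TMM. IL1B, interleukin 1 beta, had 34 reads in A549 cells and 3161 in HBE cells, 84.3 times lower (60.2 to 122). IL1A, interleukin 1 alpha, had 132 reads in A549 cells against 6834 in HBE cells, lower by 47 times (39.5 to 56.2). LCN2, lipocalin 2, which binds iron carriers of bacteria, had 70 reads in A549 cells against 4954 in HBE cells, 64.2 times lower (50.7 to 82.5). The higher members were CXCL5, CXCL3, CXCL6 and CCL2. CCL2, a chemokine for monocytes, had 42 reads in A549 cells and 1 in HBE cells, a ratio of 46.3 (7.87 to 1872).

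The S100 calcium-binding proteins lay on both sides, from a log2 ratio of -9.44 to one of 3.24 in a list that left out S100A4, which was counted with the mesenchymal genes and was also higher. Of the 17 listed S100 genes compared, 4 were higher and 5 lower in A549 cells, or 4 and 6 under TMM, and their median log2 ratio was -0.04, or -0.37 under TMM. S100A10, the partner of annexin A2, had 8442 reads in A549 cells and 2328 in HBE cells, a ratio of 4.0 (3.82 to 4.19). S100A6, a widely expressed member, had 16482 reads in A549 cells and 10489 in HBE cells, a ratio of 1.73 (1.69 to 1.78), which was not apart. S100A8, the partner of S100A9 in calprotectin, had 21 reads in A549 cells against 1596 in HBE cells, 68.9 times lower (45 to 112). The calprotectin subunits S100A8 and S100A9 were thus lower together. S100A3, a member of hair cuticle, had 380 reads in A549 cells and 44 in HBE cells, a ratio of 9.52 (6.96 to 13.3). S100A7 and S100A14 were the other lower members.

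Genes of proliferation lay slightly above the median gene. Of the 37 replication genes compared, 6 were higher and 0 lower in A549 cells, or 3 and 0 under TMM, and their median log2 ratio was 0.60, or 0.27 under TMM. PCNA, the sliding clamp, had 12310 reads in A549 cells and 3769 in HBE cells, a ratio of 3.6 (3.47 to 3.73). MCM4, a helicase subunit, had 7728 reads in A549 cells and 3912 in HBE cells, a ratio of 2.18 (2.1 to 2.26), which was not apart under TMM. MCM3, a helicase subunit, had 4047 reads in A549 cells and 5173 in HBE cells, a ratio of 0.862 (0.827 to 0.899), which was not apart. MCM3 and MCM4 belong to the same ring-shaped helicase. GINS1, a helicase cofactor, had 1803 reads in A549 cells and 298 in HBE cells, a ratio of 6.67 (5.9 to 7.56). Of the 34 mitosis genes compared, 3 were higher and 0 lower in A549 cells, or 2 and 1 under TMM, and their median log2 ratio was 0.54, or 0.21 under TMM. TOP2A, topoisomerase II, had 18657 reads in A549 cells and 7366 in HBE cells, a ratio of 2.79 (2.72 to 2.87). MKI67, the proliferation antigen Ki-67, had 8627 reads in A549 cells and 5770 in HBE cells, a ratio of 1.65 (1.59 to 1.7), which was not apart. CDC25B, a phosphatase that starts mitosis, had 4402 reads in A549 cells and 1171 in HBE cells, a ratio of 4.14 (3.88 to 4.42). PCNA, GINS1 and CDC25B all lie on the short arm of chromosome 20, where many genes were higher. Of the 63 replication-dependent histone genes compared, 8 were higher and 10 lower in A549 cells, or 3 and 12 under TMM, and their median log2 ratio was 0.44, or 0.11 under TMM. HIST1H3G, a histone H3 gene, had 56 reads in A549 cells against 3869 in HBE cells, 62.7 times lower (48.2 to 83.1). HIST1H2BB, a histone H2B gene, had 1014 reads in A549 cells and 66 in HBE cells, a ratio of 16.9 (13.2 to 22.1). Histone genes are near-identical copies, and reads of 1 copy can be assigned to another, so single members are uncertain.

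Cell cycle brakes were compared, among them CDKN2A, which A549 cells are known to have lost. Of the 8 CDK inhibitors and their neighbour MTAP compared, 1 was higher and 1 lower in A549 cells, or 1 and 1 under TMM, and their median log2 ratio was 0.08, or -0.25 under TMM, so that its sign changed with the zero point. CDKN2A, the gene of p16 and ARF, had 153 reads in A549 cells and 147 in HBE cells, a ratio of 1.15 (0.909 to 1.45), which was not apart. MTAP, the methylthioadenosine enzyme beside it, had 452 reads in A549 cells and 132 in HBE cells, a ratio of 3.77 (3.1 to 4.62). CDKN1A, the inhibitor p21, had 659 reads in A549 cells and 1714 in HBE cells, 2.36 times lower (2.16 to 2.59). The reads of CDKN2A were few in both libraries and not lower in A549 cells, and MTAP was higher, so these reads do not show a loss of the locus. Whether the reads came from these genes or were placed on them from elsewhere was not tested. Of the 24 SWI/SNF subunits compared, 0 were higher and 1 lower in A549 cells, or 0 and 1 under TMM, and their median log2 ratio was 0.17, or -0.16 under TMM, so that its sign changed with the zero point. SMARCA4, the remodelling ATPase BRG1, had 1141 reads in A549 cells against 3397 in HBE cells, lower by 2.7 times (2.53 to 2.89). SMARCA4 was the 1 member apart. ARID1A, a large DNA-binding subunit, had 1630 reads in A549 cells and 1047 in HBE cells, a ratio of 1.72 (1.59 to 1.86), which was not apart. STK11, the kinase LKB1, had 611 reads in A549 cells and 764 in HBE cells, a ratio of 0.882 (0.791 to 0.982), which was not apart. The BCL2 family sets the threshold of apoptosis. Of the 20 BCL2 family genes compared, 0 were higher and 0 lower in A549 cells, or 0 and 0 under TMM, and their median log2 ratio was 0.11, or -0.22 under TMM, so that its sign changed with the zero point. BCL2L1, the anti-apoptotic BCL-XL, had 1758 reads in A549 cells and 1932 in HBE cells, a ratio of 1.0 (0.94 to 1.07), which was not apart. MCL1, an anti-apoptotic member, had 1082 reads in A549 cells and 1546 in HBE cells, a ratio of 0.771 (0.713 to 0.834), which was not apart. BAX, a pro-apoptotic member, had 1819 reads in A549 cells and 1164 in HBE cells, a ratio of 1.72 (1.6 to 1.86), which was not apart.

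Most genes of the translation machinery were not apart. Of the 87 cytosolic ribosomal proteins compared, 3 were higher and 0 lower in A549 cells, or 3 and 9 under TMM, and their median log2 ratio was -0.06, or -0.39 under TMM. RPL19, a large subunit protein, had 21290 reads in A549 cells and 22011 in HBE cells, a ratio of 1.07 (1.05 to 1.09), which was not apart. RPS3, a small subunit protein, had 15149 reads in A549 cells and 28351 in HBE cells, a ratio of 0.589 (0.577 to 0.601), which was not apart by the sum of coding reads and lower under TMM. RPL37, a large subunit protein encoded on chromosome 5, had 5472 reads in A549 cells and 11199 in HBE cells, a ratio of 0.539 (0.521 to 0.556), which was not apart by the sum of coding reads and lower under TMM. RPL39L, a tissue-restricted paralog, had 178 reads in A549 cells and 10 in HBE cells, a ratio of 19.6 (10.4 to 41.6). The higher members were paralogs such as RPS27L and RPL39L, not the common proteins. As a whole they took 2.53% of the coding reads in A549 cells and 2.72% in HBE cells. Of the 77 mitochondrial ribosomal proteins compared, 3 were higher and 0 lower in A549 cells, or 0 and 4 under TMM, and their median log2 ratio was 0.07, or -0.26 under TMM, so that its sign changed with the zero point. Of the 66 translation factors compared, 5 were higher and 0 lower in A549 cells, or 2 and 2 under TMM, and their median log2 ratio was 0.08, or -0.25 under TMM, so that its sign changed with the zero point. EEF1A1, the main elongation factor, had 82044 reads in A549 cells and 115095 in HBE cells, a ratio of 0.786 (0.779 to 0.793), which was not apart. EEF1A2, its muscle and neuron form, had 1720 reads in A549 cells and 115 in HBE cells, a ratio of 16.5 (13.6 to 20.1). EIF4A1, an initiation helicase, had 29232 reads in A549 cells and 13456 in HBE cells, a ratio of 2.39 (2.35 to 2.44), which was not apart under TMM. EEF1A2 lies on chromosome 20, near the end of its long arm.

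Synthetases and amino acid supply added few genes apart. Of the 20 cytosolic aminoacyl-tRNA synthetases compared, 0 were higher and 0 lower in A549 cells, or 0 and 2 under TMM, and their median log2 ratio was 0.11, or -0.22 under TMM, so that its sign changed with the zero point. AARS, the alanine enzyme, had 6669 reads in A549 cells and 3639 in HBE cells, a ratio of 2.02 (1.94 to 2.1), which was not apart. TARS, the threonine enzyme, had 3883 reads in A549 cells and 7663 in HBE cells, a ratio of 0.559 (0.537 to 0.581), which was not apart by the sum of coding reads and lower under TMM. Of the 17 mitochondrial synthetases compared, 1 was higher and 0 lower in A549 cells, or 0 and 0 under TMM, and their median log2 ratio was -0.13, or -0.46 under TMM. Of the 30 amino acid transporters compared, 1 was higher and 5 lower in A549 cells, or 1 and 5 under TMM, and their median log2 ratio was 0.49, or 0.16 under TMM. SLC3A2, the heavy chain 4F2hc of several transporters, had 22110 reads in A549 cells against 81739 in HBE cells, lower by 3.35 times (3.3 to 3.4). SLC7A5, its partner LAT1, had 13317 reads in A549 cells against 38015 in HBE cells, 2.59 times lower (2.54 to 2.64). SLC38A2, a glutamine and alanine carrier, had 5421 reads in A549 cells and 14448 in HBE cells, 2.42 times lower (2.34 to 2.5). Light and heavy chain were thus lower together, and SLC7A11, the cystine carrier that also pairs with SLC3A2 and was picked after its values were seen, was higher with 3679 reads in A549 cells and 1352 in HBE cells, a ratio of 2.999 (2.82 to 3.19). SLC1A3, a glutamate carrier, had 139 reads in A549 cells against 2041 in HBE cells, lower by 13.3 times (11.2 to 15.9). Of the 24 ATF4 response and serine synthesis genes compared, 4 were higher and 2 lower in A549 cells, or 1 and 2 under TMM, and their median log2 ratio was 0.00, or -0.33 under TMM, so that its sign changed with the zero point. DDIT4, an inhibitor of mTORC1, had 3778 reads in A549 cells against 19474 in HBE cells, 4.68 times lower (4.52 to 4.84). ASNS, asparagine synthetase, had 2183 reads in A549 cells and 1545 in HBE cells, a ratio of 1.56 (1.46 to 1.66), which was not apart. GDF15, a stress cytokine, had 1177 reads in A549 cells against 2799 in HBE cells, lower by 2.16 times (2.01 to 2.31).

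Protein folding and breakdown held few genes apart. Of the 21 chaperones of the endoplasmic reticulum compared, 0 were higher and 1 lower in A549 cells, or 0 and 3 under TMM, and their median log2 ratio was -0.33, or -0.66 under TMM. HSPA5, the chaperone BiP, had 12770 reads in A549 cells and 21538 in HBE cells, a ratio of 0.654 (0.639 to 0.668), which was not apart. HYOU1, a large chaperone of this compartment, had 1093 reads in A549 cells and 3465 in HBE cells, 2.88 times lower (2.69 to 3.08). Of the 29 heat shock proteins and chaperonin subunits compared, 3 were higher and 1 lower in A549 cells, or 1 and 1 under TMM, and their median log2 ratio was 0.36, or 0.03 under TMM. HSP90AA1, the inducible HSP90, had 132955 reads in A549 cells and 67949 in HBE cells, a ratio of 2.16 (2.14 to 2.18), which was not apart under TMM. HSP90AB1, the constitutive HSP90, had 39349 reads in A549 cells and 47466 in HBE cells, a ratio of 0.914 (0.902 to 0.926), which was not apart. CCT5, a chaperonin subunit, had 24895 reads in A549 cells and 44008 in HBE cells, a ratio of 0.624 (0.614 to 0.633), which was not apart. HSPA1A was higher but 95.9% of its coding stretches occur in another gene. HSPA4L, a nucleotide exchange factor, had 1306 reads in A549 cells against 5978 in HBE cells, lower by 4.15 times (3.91 to 4.41). Of the 34 proteasome subunits compared, 2 were higher and 0 lower in A549 cells, or 1 and 1 under TMM, and their median log2 ratio was 0.22, or -0.11 under TMM, so that its sign changed with the zero point. PSMC4, an ATPase of the cap, had 5790 reads in A549 cells and 1483 in HBE cells, a ratio of 4.3 (4.06 to 4.56). PSMC3, an ATPase of the cap, had 3446 reads in A549 cells and 7095 in HBE cells, a ratio of 0.535 (0.514 to 0.558), which was not apart by the sum of coding reads and lower under TMM. These subunits belong to the same ring of the particle.

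Energy metabolism was mixed. Of the 24 glycolysis genes compared, 5 were higher and 3 lower in A549 cells, or 3 and 4 under TMM, and their median log2 ratio was 0.27, or -0.06 under TMM, so that its sign changed with the zero point. ENO1, an enolase, had 43924 reads in A549 cells and 13111 in HBE cells, a ratio of 3.69 (3.62 to 3.77). PKM, pyruvate kinase, had 54253 reads in A549 cells and 32492 in HBE cells, a ratio of 1.84 (1.82 to 1.87), which was not apart. GAPDH, the common reference enzyme, had 66835 reads in A549 cells and 57373 in HBE cells, a ratio of 1.28 (1.27 to 1.3), which was not apart. Most enzymes of the pathway were not apart. PFKFB3, a regulator of glycolytic flux, had 7392 reads in A549 cells and 1716 in HBE cells, a ratio of 4.75 (4.5 to 5.01). ALDOC, the brain aldolase, had 106 reads in A549 cells against 622 in HBE cells, 5.32 times lower (4.33 to 6.6). Of the 81 respiratory chain and ATP synthase subunits compared, 0 were higher and 5 lower in A549 cells, or 0 and 13 under TMM, and their median log2 ratio was -0.19, or -0.52 under TMM. ATP5B, the catalytic subunit of ATP synthase, had 14698 reads in A549 cells and 18919 in HBE cells, a ratio of 0.856 (0.838 to 0.875), which was not apart. SDHA, the flavoprotein of complex II, had 2125 reads in A549 cells against 6756 in HBE cells, lower by 2.88 times (2.75 to 3.03). NDUFS6, a complex I subunit, had 4844 reads in A549 cells against 15164 in HBE cells, 2.84 times lower (2.75 to 2.93). SDHA and NDUFS6 both lie on chromosome 5. Of the 26 cholesterol genes compared, 1 was higher and 4 lower in A549 cells, or 0 and 4 under TMM, and their median log2 ratio was -0.34, or -0.67 under TMM. IDI1, an isomerase of the pathway, had 1417 reads in A549 cells and 5883 in HBE cells, 3.77 times lower (3.55 to 3.99). HMGCS1, an early synthase, had 3679 reads in A549 cells and 5310 in HBE cells, a ratio of 0.764 (0.732 to 0.797), which was not apart.

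Lists of olfactory receptors, hair keratins, leukocyte genes and SR factors held few genes apart. Olfactory receptors had a median of 31 reads in A549 cells and 23 in HBE cells. Keratin-associated and hair keratin genes had 39 and 27. Over all genes with 50 to under 100 reads over both libraries, only 1.55% were higher and 0.733% lower. Few genes apart in lists with so few reads therefore do not show that the libraries are alike there. Some hair keratins were well read, with 31861 reads of KRT86 in A549 cells and 16408 in HBE cells. Of the 329 olfactory receptors compared, 4 were higher and 1 lower in A549 cells, or 1 and 1 under TMM, and their median log2 ratio was 0.53, or 0.20 under TMM. Of the 79 keratin-associated and hair keratin genes compared, 3 were higher and 0 lower in A549 cells, or 2 and 0 under TMM, and their median log2 ratio was 0.64, or 0.31 under TMM. Of the 13 leukocyte genes compared, 1 was higher and 0 lower in A549 cells, or 1 and 0 under TMM, and their median log2 ratio was 0.27, or -0.06 under TMM, so that its sign changed with the zero point. LYZ, lysozyme, had 1773 reads in A549 cells and 593 in HBE cells, a ratio of 3.3 (3.0 to 3.62). LYZ was the 1 higher leukocyte gene, and it is also known in airway glands. Of the 14 SR splicing factors compared, 1 was higher and 0 lower in A549 cells, or 0 and 0 under TMM, and their median log2 ratio was 0.23, or -0.10 under TMM, so that its sign changed with the zero point.

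**Figure D4:**
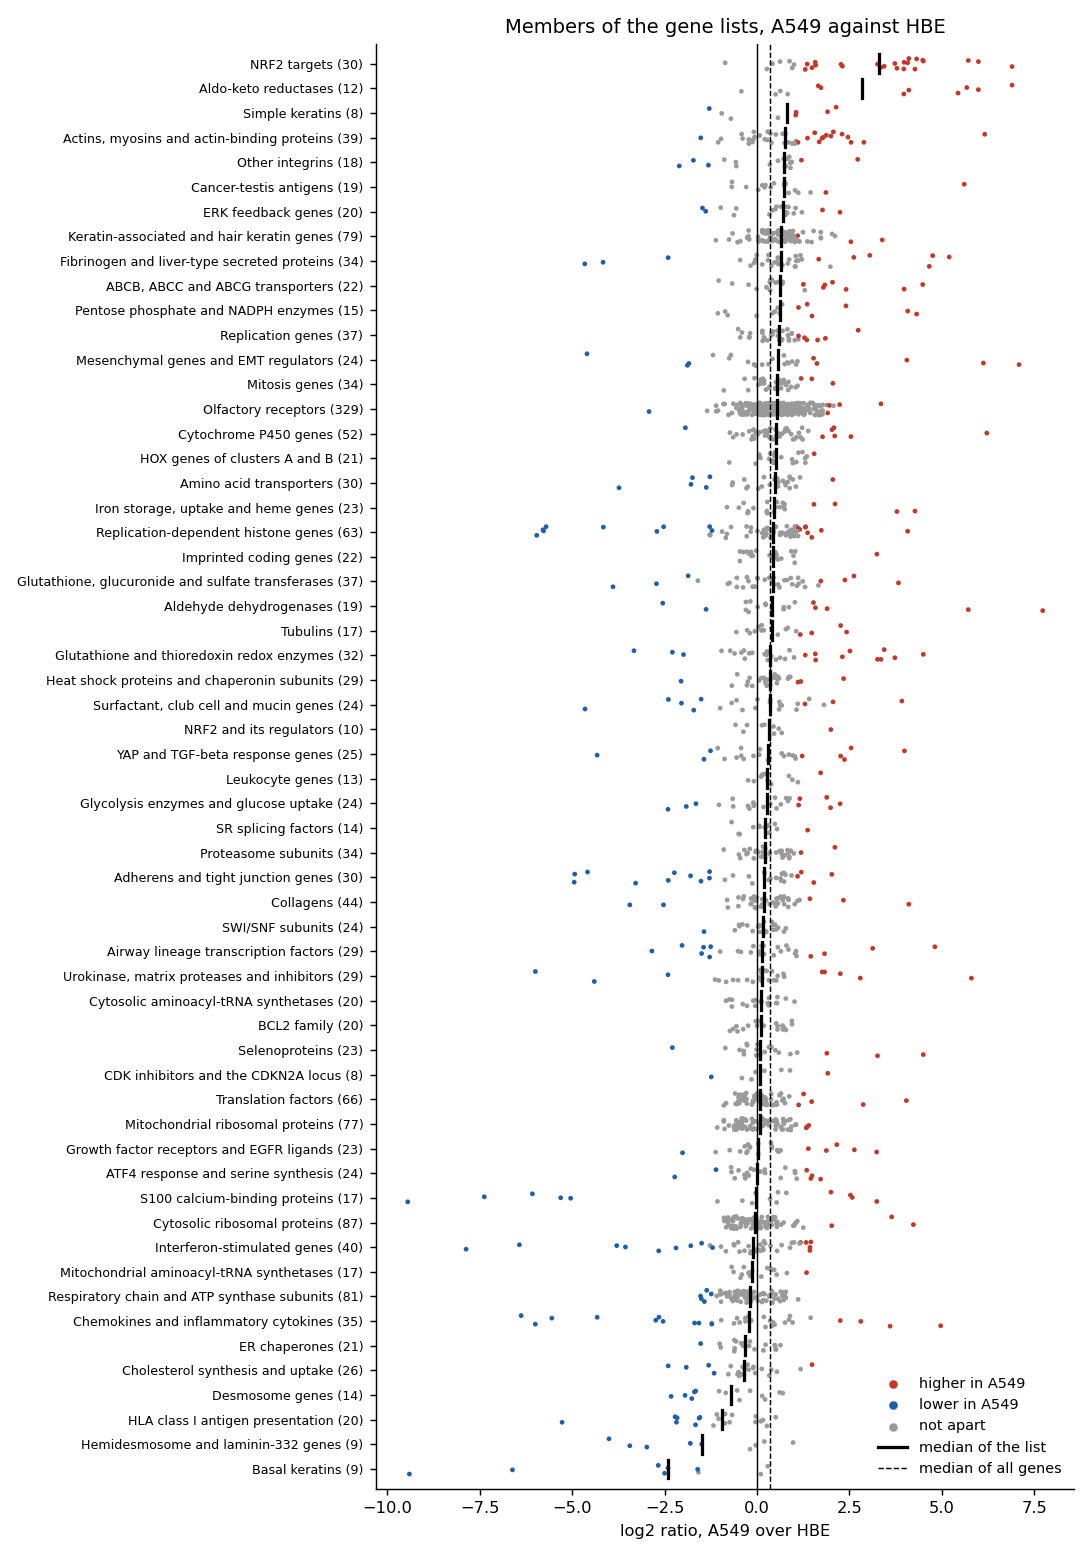
Log2 ratio of A549 over HBE (horizontal axis) for the members of the 58 gene lists (rows, number of genes compared in brackets), ordered by the median of the list (black bar), with genes higher in red, lower in blue and not apart in grey. The medians run from 3.31 for the NRF2 targets down to -2.41 for the basal keratins, and most lists lie close to the median of all genes at 0.35 (dashed).

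The ratio also changed with the place of a gene in the genome, most of all on chromosome 20. Among genes with at least 100 reads, 16.4% of those on chromosome 20 were higher, against 13.9% on chromosome 8, the next in order, and 2.52% on chromosome 13. Over all 16619 genes with at least 100 reads, 6.74% were higher and 3.72% lower. Counts by place, here and on chromosome 5, were made by the sum of coding reads and not under TMM. The higher genes of chromosome 20 were gathered at one end. Of 145 genes that start between positions 1 and 30000000 in hg19, which holds the short arm and the centromere, 58 were higher and 0 lower, with a median log2 ratio of 1.02. Of 299 genes beyond position 30000000, 15 were higher and 13 lower, with a median of 0.12. The median of the first part lay 0.67 above the median gene and that of the second 0.24 below it, so the contrast does not depend on the zero point. The genes named from these windows were picked after their values were seen. SNRPB, a core protein of spliceosomal particles, had 14692 reads in A549 cells and 5412 in HBE cells, a ratio of 2.99 (2.90 to 3.09). DSTN, the actin-severing protein destrin, had 11891 reads in A549 cells and 3176 in HBE cells, a ratio of 4.13 (3.97 to 4.29). PSMF1, an inhibitor of the proteasome, had 2522 reads in A549 cells and 668 in HBE cells, a ratio of 4.16 (3.82 to 4.54). These genes have unrelated functions. JAG1, a ligand of Notch, had 2737 reads in A549 cells and 958 in HBE cells, a ratio of 3.15 (2.92 to 3.39).

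On chromosome 5, windows of the short arm and around the centromere were among the lowest of all windows of 10 Mb. Of 42 genes that start after 30000000 and up to 40000000, 1 was higher and 4 lower, with a median log2 ratio of -0.36, which is 0.71 below the median gene. Of 26 genes between 40000001 and 50000000, 0 were higher and 1 lower, with a median of -0.31. BRIX1, a factor of ribosome assembly, had 3284 reads in A549 cells and 6787 in HBE cells, a ratio of 0.533 (0.511 to 0.556), which was not apart by the sum of coding reads and lower under TMM. RAI14, an actin-binding protein, had 2013 reads in A549 cells and 6433 in HBE cells, 2.90 times lower (2.76 to 3.05). By the sum of coding reads most genes of these windows were not apart one by one. The copy number of either line was not measured in these libraries, and its part in the shift was not tested.

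**Figure D5:**
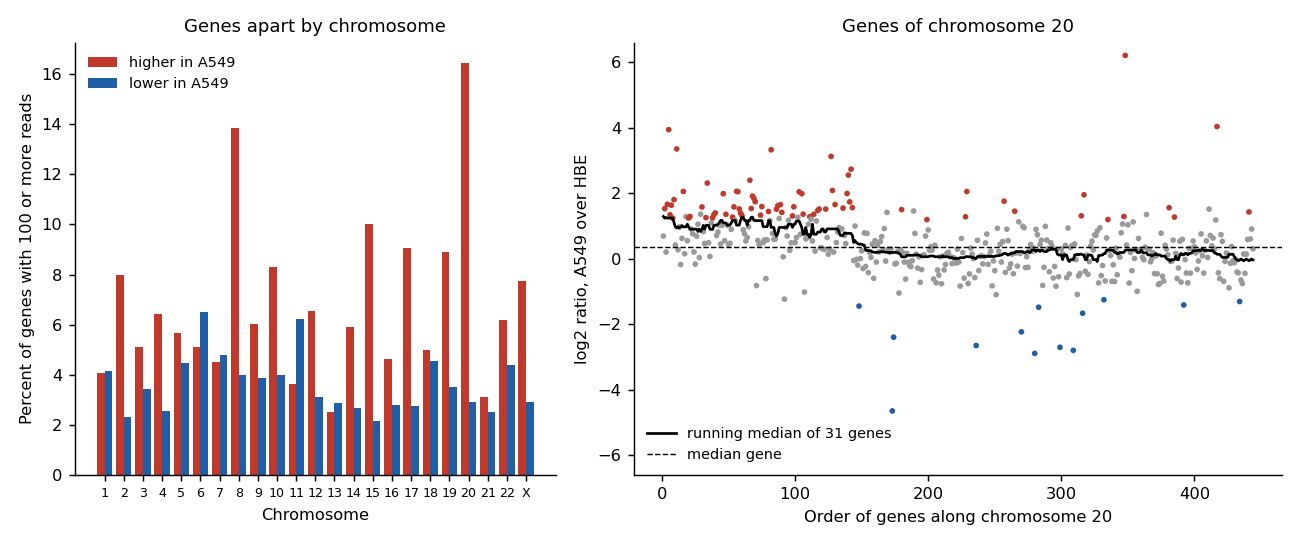
Percent of genes with 100 or more reads that were higher (red) or lower (blue) in A549 cells on each chromosome (left), and log2 ratio of the 444 such genes of chromosome 20 in their order along it (right), with a running median of 31 genes (black) and the median gene (dashed). The running median steps down after the first 145 genes, of which 58 were higher and 0 lower.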

How the data were processed

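Ribosome footprint libraries of A549 and HBE cells, 1 per line, were used. The authors removed adapters, cut reads where quality fell, used FANSe2 (no version stated) to align the rest to RefSeq transcripts, with hg19 as the build in the submitters' processing notes, and deposited a read count and an RPKM value for each transcript; the counts were used, and the RPKM values that the authors computed from them were not tested. Members and gene lists were chosen with earlier results of these data known. Counts of all transcripts of a gene with an NM transcript were summed, symbols that a spreadsheet had turned into dates were restored through RefSeq, and genes with at least 20 reads over both libraries were kept. Mapped reads were 38268527 in A549 cells and 43580281 in HBE cells, of which 81.8% and 79.2% lay on coding transcripts. The ratio of shares was given an exact 95% Clopper-Pearson interval (scipy 1.17.1), which covers counting error only, and log2 ratios had 0.5 reads added. Genes were called apart when the interval lay wholly beyond 2-fold. TMM factors came from edgeR 4.0.16 in R 4.3.3, without a test. Named genes were the 20 most higher and 20 most lower with at least 200 reads and an interval beyond 4-fold, the 5 genes with most reads in each of 9 bands of the ratio, the 6 members of each list with most reads and those with its highest and lowest ratio, the 10 genes with most reads in each library, cell type markers and genes of known state in A549 (KEAP1, NFE2L2, CDKN2A, STK11 and SMARCA4), 469 in all; others are said to be picked after their values were seen. Stretches of 28 bases shared between coding sequences were counted among 17696 genes. The interval was checked on simulated counts. Other denominators, read minimums, added reads, transcript choices and a 4-fold limit were tried. Some genes are not reported here.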

Additional observations from a re-analysis of the deposited data

Results flagged for a closer look

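Gene names without a coding transcript stood outside the comparison of coding genes, and they too held reads in both libraries. Of 4119 such names with at least 20 reads, 226 were higher in A549 cells, which is 5.49%, and 109 were lower, which is 2.65%, with a median log2 ratio of 0.50. They were singled out because they are a signal in data that the comparison of coding genes did not use. MIR205, the gene of a microRNA of basal epithelium, had 6 reads in A549 cells and 14816 in HBE cells, 2240.3 times lower (1029 to 6106). MIR127, an imprinted microRNA gene, had 301 reads in A549 cells and 0 in HBE cells, where a count of 0 allows up to 3 reads. Whether reads on microRNA genes are ribosome footprints or the microRNA itself was not tested.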

How the results depend on the processing

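No paired analysis was possible because A549 and HBE cells gave 1 library each. The zero point moved the counts: TMM gave 645 higher and 1041 lower genes with a median log2 ratio of 0.022, and the median gene set to 0 gave 621 and 1090 with a median of 0.00. The median was 0.16 with upper quartile factors, 0.20 without the 10 genes with most reads, 0.40 over all mapped reads and 0.33 with a minimum of 100 reads. A limit of 4-fold left 249 higher and 212 lower genes. The 40 most extreme genes kept their side in 438 of 438 values, except that IFITM3 had too few reads when coding transcripts alone were used. These genes had been chosen for at least 200 reads and an interval wholly beyond 4-fold. Other zero points, read minimums and added reads could therefore hardly change their side, and this count is no check of them. Of the 58 lists, 46 had a median above 0 by the sum of coding reads and 27 under TMM, and 19 changed sign. Across the alternatives 581 list medians stayed and 57 moved, and 1090 list counts stayed and 186 moved. Of the named genes 178 were apart under both scalings, 21 were higher only by the sum of coding reads and 24 lower only under TMM. Chosen after seeing the data, a minimum of 1000 reads put the medians of the chromosome 20 windows from 1 and from 10000001 at 0.99 and 1.00 above the median gene, against 0.67 and 0.80, and of the 108 higher and 91 lower named genes 92 and 76 had under 10% of their coding stretches in another gene. Low counts limit genes with few reads in either library, and 1 library per line limits every ratio.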
